A study of Mus musculus with 42 samples.

Results

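The genes of the IL-12 cytokine family were examined in chromatin immunoprecipitation sequencing (ChIP-seq) of mouse bone marrow-derived macrophages. The 5 members, taken by gene symbol from 21884 protein-coding genes of the mm10 annotation, were Il12a, Il12b, Il23a, Il27 and Ebi3. Macrophages were grown from male C57Bl6/J mice of the wild type (WT) or from mice without Nur77 in any tissue (KO), and received no LPS (0 h) or 100 ng/ml LPS for 1 h or 18 h. Nur77 is the orphan nuclear receptor encoded by Nr4a1. The KO came from crossing mice with a loxP-flanked Nr4a1 to mice with a Cre driven by the CMV promoter and then breeding out the Cre, per the study's methods, and WT were littermates. The genotype label of the KO libraries names only Cre, so whether these mice still carried it was not settled. Each of the 6 groups had 3 libraries for RNA polymerase II (Pol II), 3 for acetylated histone H3 lysine 27 (H3K27ac, found at promoters and enhancers in use) and 1 input library without antibody. Labels do not say whether replicates came from separate mice, so p-values measure the spread between these libraries.

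Cytokines of this family are heterodimers of a helical subunit and a receptor-like subunit, and both subunits are needed for the active dimer. Il12a encodes p35 and Il12b encodes p40, which pair as IL-12, the cytokine that drives interferon-gamma production and type 1 helper T cells. The p40 subunit also pairs with p19, the product of Il23a, to form IL-23, which maintains T cells that make IL-17. Il27 encodes p28, which pairs with the product of Ebi3 as IL-27, a cytokine known both for early T cell activation and for restraining inflammation. LPS, a bacterial cell wall component sensed by TLR4, is a textbook inducer of these genes in macrophages through NF-kB, AP-1, C/EBP and IRF factors.

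On mm10 the members lay on 5 chromosomes. Il12a (ENSMUSG00000027776) was at chr3:68690644-68698547 on the plus strand, with a second annotated start, directly after chr3:68691423, inside the first intron of the longer transcript. Il12b (ENSMUSG00000004296) was at chr11:44400063-44414033 on the plus strand, Il23a (ENSMUSG00000025383) at chr10:128296139-128298752 on the minus strand, Il27 (ENSMUSG00000044701) at chr7:126589010-126594941 on the minus strand, and Ebi3 (ENSMUSG00000003206) at chr17:55952640-55957022 on the plus strand. RefSeq promoters (GRCm38.p6) were at hand for 3 of the 5 members, with 4 starts between them. The 250 bases before the Il12b start and before both Il12a starts are shown because Pol II at these genes separated the genotypes, and those of Ebi3 for comparison with a member whose Pol II did not. The motif letters were chosen with these sequences in view. Capitals mark matches, on either strand, to one of 7 patterns. These were TATANAA for the box near a start that the general factor TBP binds, GGGGAA for a half-site of NF-kB, TTGCNNAA for C/EBP factors, GAGGAA for PU.1, TGANTCA for AP-1 (the same on both strands), AAAGGTCA for the element that Nur77 monomers bind, and the core of the interferon-stimulated response element.
Il12b, chr11:44399813-44400062, plus strand: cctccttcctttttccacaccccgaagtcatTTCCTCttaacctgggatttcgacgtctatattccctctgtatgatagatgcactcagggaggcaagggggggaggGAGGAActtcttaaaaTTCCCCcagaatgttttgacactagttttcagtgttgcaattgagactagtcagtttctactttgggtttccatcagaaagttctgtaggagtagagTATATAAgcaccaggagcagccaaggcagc
Il12a, first start, chr3:68690394-68690643, plus strand: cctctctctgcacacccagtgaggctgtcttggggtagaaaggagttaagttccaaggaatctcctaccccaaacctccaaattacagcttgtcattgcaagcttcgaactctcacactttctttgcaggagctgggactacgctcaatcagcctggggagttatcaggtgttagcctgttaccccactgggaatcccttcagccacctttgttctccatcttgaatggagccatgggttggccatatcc
Il12a, second start, chr3:68691174-68691423, plus strand: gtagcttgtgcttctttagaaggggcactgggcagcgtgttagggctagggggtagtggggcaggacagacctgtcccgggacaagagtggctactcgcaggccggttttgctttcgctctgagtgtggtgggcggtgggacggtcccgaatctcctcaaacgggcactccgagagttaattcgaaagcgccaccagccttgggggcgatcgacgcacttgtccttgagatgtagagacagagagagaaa
Ebi3, chr17:55952373-55952622, plus strand: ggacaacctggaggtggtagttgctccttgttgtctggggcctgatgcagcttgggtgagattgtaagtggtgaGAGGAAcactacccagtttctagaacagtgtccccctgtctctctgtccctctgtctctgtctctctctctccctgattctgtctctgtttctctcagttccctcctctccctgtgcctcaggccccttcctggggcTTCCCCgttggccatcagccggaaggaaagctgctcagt

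The Il12b promoter held TATATAA 30 bases before the start, TTCCCC 127 bases before it, and GAGGAA letters 143 and, on the other strand, 219 bases before it. Among all 32841 promoter windows of this length, 10.4% held TATANAA, 20.3% GGGGAA and 23.3% GAGGAA on either strand. The Ebi3 promoter held GAGGAA and TTCCCC, 176 and 39 bases before the RefSeq start, and neither Il12a window held any of the 7 patterns. TTGCNNAA was present in 9.57% of promoters, TGANTCA in 6.75%, the interferon-stimulated response element in 2.98% and AAAGGTCA in 1.34%. A match is a description of letters, not a binding site.

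Each deposited file lists the regions that 1 library held above its local background, with a tag count scaled to 10 M tags, so a value of 0 means that no region was found and not that no reads were there. The smallest Pol II region of a library held 3.83 to 4.82 tags. Pol II values below are the tags of regions over the gene with 500 bp at either end, and H3K27ac values are those within 2500 bp of the gene start. A region that ran past the window was counted by its overlapping length, which spreads its tags evenly. Depth ran from 21.7 to 36.1 M tags in Pol II libraries and from 13.5 to 55.4 M in H3K27ac libraries. The H3K27ac libraries were deeper in KO (group means of 31.6 to 40 M) than in WT (16.1 to 22.4 M), and the part of this difference in the H3K27ac results was not tested.

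Pol II over Nr4a1 was 188 to 208 tags in WT and 70.2 to 87.8 in KO at 0 h, so the genotypes separated. At 1 h it was 23 to 30.4 in WT and 33.5 to 39.0 in KO, and at 18 h it was 0 to 7.46 in WT and 0 in KO. The labels do not say which part of the gene is deleted, so these values check the genotype of the Pol II libraries at 0 h only. H3K27ac at the Nr4a1 start was not called between genotypes (-0.05, 0.20 and -0.77 at 0 h, 1 h and 18 h, adjusted p = 0.992, 0.621 and 0.138, limma), so the genotype of the H3K27ac libraries is unchecked. The 6 macrophage markers fixed for this work summed to 14726 to 40409 Pol II tags per library, whereas the 3 dendritic cell markers summed to 25.4 to 73.2, the 3 T cell markers to 26.4 to 128, the 3 B cell markers to 33.8 to 116, the 3 fibroblast markers to at most 6.21, and the 3 neutrophil markers to 0. The macrophage sum at 1 h was 25191 to 26020 in WT and 15774 to 16172 in KO, without overlap and in the same direction as the differences over Il12b and Il27. Adgre1 held most of it (21921 to 22676 tags in WT and 13008 to 13349 in KO). Csf1r was the only marker of the 6 with a higher mean in KO (829 to 862 tags in WT and 1090 to 1181 in KO). The part of this in the results was not tested. Among the markers at 0 in every library were Dpp4, Cd3e, Pax5, Ly6g, Mpo, Elane, Col1a1 and Dcn.

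The H3K27ac library labelled KO 1 h replicate 1 stood apart. Over 22090 regions found in all 18 H3K27ac libraries its correlation was 0.906 to 0.909 with the other KO 1 h libraries but 0.980 to 0.982 with the 3 WT 1 h libraries. KO 1 h replicates 2 and 3 correlated at 0.889 to 0.898 with WT 1 h, whereas KO 18 h replicates 2 and 3 correlated at 0.979 to 0.982 with WT 18 h. At 1 h it was therefore not settled whether replicate 1 or replicates 2 and 3 depart from their label, and a value without replicate 1 rests on the latter alone. The library labelled KO 18 h replicate 1 also stood apart, with r of 0.911 to 0.912 with its own group and 0.904 to 0.907 with WT 18 h. Every other pair of replicates correlated at 0.989 or above in both antibodies. Input libraries, measured the same way with 1 per group, held at most 73.2 tags in a Pol II window and 71.2 in an H3K27ac window of a member, both over Il27 at 1 h. Labels were kept as given, and the main H3K27ac differences between genotypes are also given without the KO replicate 1 libraries of 1 h and 18 h.

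All values were compared with limma on log2(tags + 10) over the 18 libraries of an antibody, with Benjamini-Hochberg adjustment over all genes tested and a call at an adjusted p under 0.05. A gene entered a comparison where 2 or 3 libraries of either group held a region over it. Under the deposited scaling the median gene itself moved in Pol II, by -0.82 (WT) and -0.62 (KO) on the log2 scale from 0 h to 1 h, by 0.81 and 0.47 from 1 h to 18 h, and by 0.24 from WT to KO at 1 h, and member changes should be read against these shifts. In H3K27ac the largest such median shift was -0.15.

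After 1 h of LPS, Pol II rose over 4 of the 5 members in WT and over all 5 in KO, where 18.6% and 20.6% of all genes tested were called higher. Il12b, Il27, Ebi3 and Il23a were the members that rose in both genotypes, and the fifth in KO, Il12a, was at the level of the KO input. By 18 h no Pol II region was found over Il12b in either genotype, Pol II over Il27 and Ebi3 had fallen from its 1 h level, and the window of Il23a was at its highest. Over Il12a a Pol II region was found at 18 h in KO libraries and in no WT library. From 1 h to 18 h, 4 of 5 members changed in WT and 5 of 5 in KO, against 85.4% and 79.5% of all genes.

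**Figure D1:**
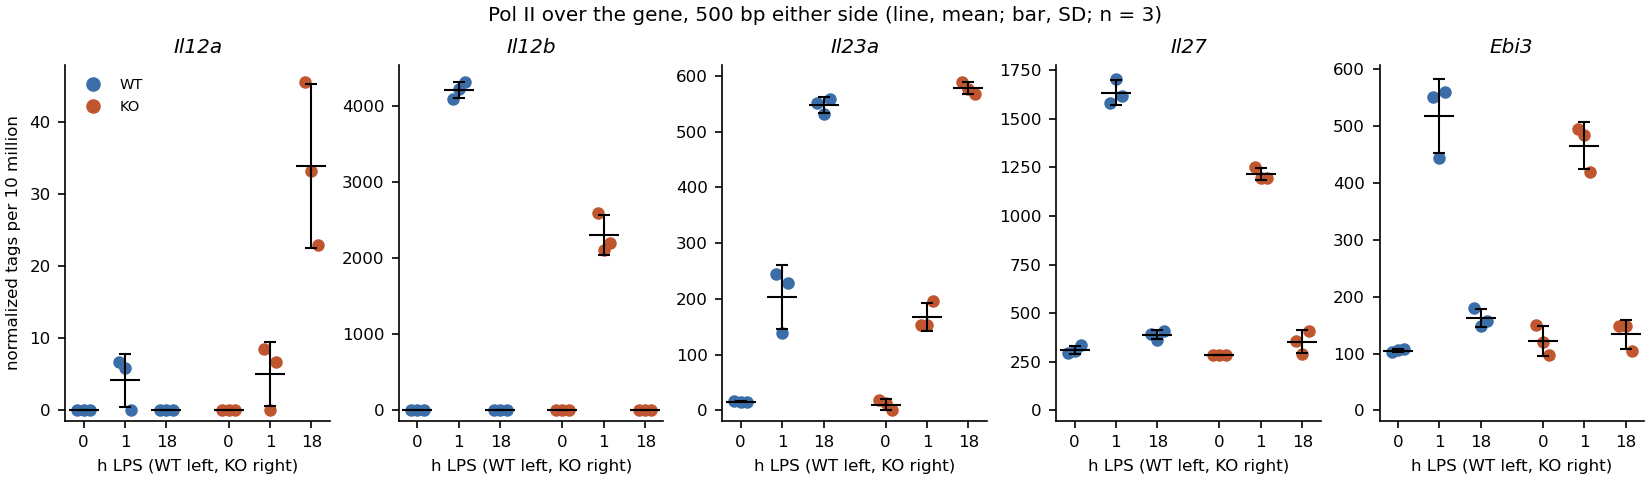
Pol II over the 5 genes in each of 18 libraries, in normalized tags per 10 M, by hours of LPS with WT on the left and KO on the right of each panel. Points are libraries, horizontal lines are means and bars are SD (n = 3), each panel has its own axis from 0, and the KO points for Il12b at 1 h (2106 to 2599) all lie below the WT points (4096 to 4314).

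Il12b, the p40 subunit shared by IL-12 and IL-23, showed the widest swing. At 0 h Pol II was 0.211, 0.498 and 0 tags in the WT libraries and 0 in the KO libraries. At 1 h it was 4096, 4226 and 4314 tags in WT and 2599, 2106 and 2204 in KO. No library held a region at 18 h. Pol II was thus dense over the gene at 1 h only, and the genotypes did not overlap there. KO was lower than WT by 0.87 on the log2 scale at 1 h (SE 0.10, 95% confidence interval -1.08 to -0.67, adjusted p = 3.5e-06, limma), against a median of 0.24 over all genes. The rise from 0 h to 1 h itself differed between genotypes, with a genotype by LPS interaction of -0.84 (adjusted p = 0.000592). On the log2(tags + 1) scale, which gives the near-0 values at 0 h more weight, the interaction was -0.59 and was not called (adjusted p = 0.112), whereas the difference at 1 h was (adjusted p = 0.0011). The region behind the 1 h values was 18941 to 19776 bp long, began before the start, and had 75.7 to 79% of its length inside the window. Ublcp1, the only listed gene within 50 kb, was not called between genotypes at 1 h (0.05, adjusted p = 0.655).

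Il12a, the p35 subunit of IL-12, was close to the limit of detection until 18 h in KO. Pol II was 0 in every library at 0 h. At 1 h it was 6.72, 5.83 and 0 tags in WT and 8.50, 0 and 6.68 in KO, and these overlapped. At 18 h it was 45.6, 33.2 and 23 tags in the KO libraries and 0 in all 3 WT libraries. KO was called higher than WT at 18 h (adjusted p = 3.31e-06, limma), and no fold is given because WT was at 0. The interaction at 18 h was also called (adjusted p = 0.00028), but not when all libraries were held to a common density floor (adjusted p = 0.141). The KO input at 1 h held 6.17 tags over the gene and the WT input 0, so the KO values at 1 h were at input level. At 1 h the rise passed the test in KO (adjusted p = 0.036, or 0.244 with a common density floor) and not in WT (adjusted p = 0.0631), and the interaction was 0.07 (95% interval -0.61 to 0.75, adjusted p = 0.905).

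These Il12a regions lay across or past the second annotated start. At 1 h the regions of both KO libraries and of 1 WT library ran from 413 to 1060 bases past the first start, across the second start, and the region of the other WT library lay past the end of the gene. In KO at 18 h the regions lay between 638 and 3735 bases past the first start and were 1362 to 3056 bp long, apart from a region of 500 bp at the gene end in replicate 1. Within 500 bp of the first start, no Pol II region was found at 18 h in any library.

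Il23a, the p19 subunit of IL-23, had its highest Pol II at 18 h. Pol II was 17, 14.4 and 15.5 tags in the WT libraries at 0 h, then 245, 138 and 228 after 1 h, then 551, 531 and 559 after 18 h. In KO it was 18.2, 13.1 and 0.122 tags at 0 h, then 153, 154 and 196 after 1 h, then 589, 576 and 568 after 18 h. Levels rose at each time in both genotypes, and the genotypes overlapped at 0 h and 1 h but not at 18 h. From 1 h to 18 h Pol II rose by 1.42 in WT (adjusted p = 9.46e-05) and by 1.74 in KO (adjusted p = 1.29e-05, limma). KO and WT differed by -0.23 at 1 h (95% interval -0.80 to 0.33, adjusted p = 0.488) and by 0.08 at 18 h (-0.49 to 0.64, adjusted p = 0.869). The gene is short, and at 0 h 5 of 6 libraries held a region of 788 to 1155 bp inside its window. At 1 h and 18 h a region in the window also covered Stat2 in all 6 libraries of each time, and it reached Pan2 in 2 of 6 libraries at 1 h and in 5 of 6 at 18 h. At 18 h the region was 31972 to 36518 bp long with 9.89 to 11.3% of it inside the window, so Pol II on Il23a and on its neighbours cannot be told apart there. Stat2 itself rose from 1 h to 18 h by 1.23 in WT and 1.79 in KO, and was lower in KO at 1 h by 0.47 (adjusted p = 0.000421, limma).

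Il27, the p28 subunit of IL-27, had tags in its window before LPS, most of them from a region shared with its neighbours. Pol II was 294, 308 and 336 tags in WT at 0 h and 284, 287 and 286 in KO. At 1 h it was 1580, 1704 and 1616 tags in WT and 1251, 1198 and 1197 in KO, which did not overlap. The 18 h values were 394, 365 and 409 tags in WT and 356, 291 and 409 in KO, which did. KO was lower at 1 h by 0.42 on the log2 scale (SE 0.09, adjusted p = 0.00175, limma), but the interaction of -0.30 did not pass the test (adjusted p = 0.127). At 1 h the Pol II region was 80262 to 89112 bp long and also covered Cln3, Eif3c, Nupr1 and Apobr, whose annotated end overlaps the Il27 gene by 103 bp. Of its length 7.78 to 8.64% lay in the window, so Il27 and these genes cannot be told apart there. The same holds at the other times. At 0 h most tags came from a region of 23250 to 23794 bp that began 1942 to 2551 bases past the start and covered Cln3 and Apobr, and at 18 h from one of 30643 to 64952 bp that covered both as well. Within 500 bp of the Il27 start Pol II was 11.4 to 14.4 tags in WT and 6.13 to 9.36 in KO at 0 h, from small regions of its own. At 1 h and 18 h a start window holds only an even share of the long region, so it gives no separate measure of the start. Apobr, Cln3, Eif3c and Nupr1 were themselves lower in KO at 1 h, by 0.42, 0.42, 0.32 and 0.38.

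Ebi3, the receptor-like partner of p28, rose at 1 h in both genotypes. Pol II was 102, 106 and 108 tags in the WT libraries at 0 h, then 550, 443 and 559 after 1 h, then 180, 148 and 158 after 18 h. In KO it was 150, 120 and 97.4 tags at 0 h, then 493, 483 and 418 after 1 h, then 148, 148 and 104 after 18 h. The genotypes overlapped at each time. From 0 h to 1 h Pol II rose by 2.19 in WT (adjusted p = 2.6e-10) and by 1.86 in KO (adjusted p = 2.88e-09, limma). When every region that overlaps an input region was removed, the WT change turned to -0.76 at 1 h and at 18 h. The KO and WT difference was -0.15 at 1 h (95% interval -0.46 to 0.17, adjusted p = 0.433). When each library was centred on its median gene it was -0.40 and passed the test (adjusted p = 0.031). At 1 h its Pol II region was 13009 to 16221 bp long and ran on into Yju2, the next gene downstream.

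Per kb of window, Pol II over Il12b at 1 h had a mean of 281 tags per kb in WT (274 to 288) and 154 in KO (141 to 174). Il12a had 0.470 (0 to 0.755) in WT and 0.568 in KO, so Il12b stood above Il12a without overlap. The Ebi3 window had 96.1 (82.3 to 104) in WT and 86.4 in KO, the Il27 window 236 (228 to 246) and 175 (173 to 180), and the Il23a window 56.3 (38.2 to 67.8) and 46.4. These 3 are mean densities of regions that also cover other genes, so Ebi3, Il27 and Il23a cannot be placed in the order of the members. At 18 h the Il23a window held 151 tags per kb in WT and 160 in KO, again from a shared region, and Il12a in KO reached 3.81.

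Against 0 h, 18 h of LPS left Pol II higher over 3 of 4 members tested in WT and 3 of 4 in KO, against 33.3% and 28.1% of all genes. Il23a rose by 4.44 in WT and 4.97 in KO, and Il27 by 0.31 and 0.28, both from regions shared with other genes at 18 h. Ebi3 rose by 0.58 in WT (adjusted p = 0.00256) and changed by 0.12 in KO (adjusted p = 0.491), and the interaction of -0.46 was not called (adjusted p = 0.161). Within 500 bp of the Ebi3 start alone the KO change was -0.46, where the even sharing of tags over regions of 3424 to 3771 bp at 18 h and 1315 to 1595 bp at 0 h enters the value.

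Between genotypes, 0 of 4 members tested differed in Pol II at 0 h, where 6.97% of all genes were called, and 0 of these 4 had an unadjusted p under 0.05. At 1 h 2 of 5 were called, both lower in KO, where 7.48% of all genes were called lower and 38.3% higher (45.8% in either direction). At 18 h 1 of 4 was called, higher in KO, where 7.58% of all genes were called higher and 13.5% lower (21.1% in either direction). Interactions were called for 1 of 5 members at 1 h and 1 of 5 at 18 h, against 18.5% and 14.8%.

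**Figure D2:**
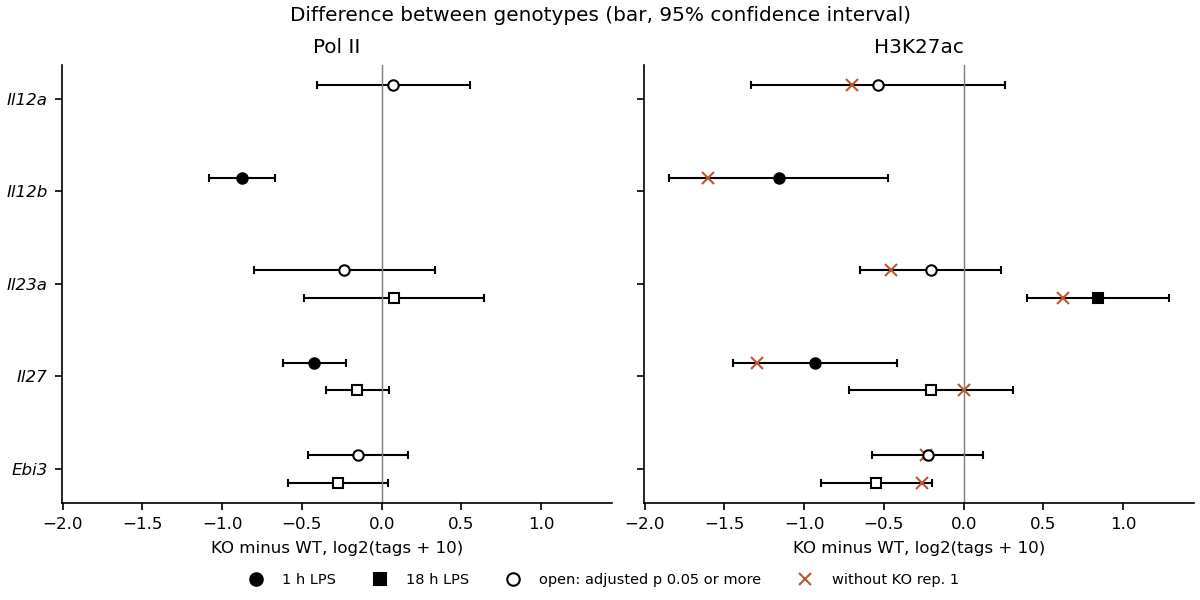
Difference between KO and WT on the log2(tags + 10) scale for each member, Pol II on the left and H3K27ac on the right, at 1 h (circles) and 18 h (squares), with 95% confidence intervals from limma. Filled symbols passed an adjusted p of 0.05, crosses give the H3K27ac value without the 2 KO libraries that stood apart, and members whose WT libraries were all at 0 at that time are left out. Il12b at 1 h lies left of 0 for both antibodies (-0.87 and -1.16).

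H3K27ac at the gene starts rose at all 5 members after 1 h in WT and in KO, where 25.3% and 20.4% of all genes tested were called higher. With a common density floor the rise was called at 3 members in KO. Il23a and Il27 gained most in tags, Il12b and Il12a went from 0 or a single weak region to a region in all libraries, and Ebi3 carried the mark before LPS. By 18 h the mark had fallen at all 5 members in WT, and at Il12b, Il23a and Ebi3 in KO. Of all genes, 28.6% in WT and 27.3% in KO were called lower between 1 h and 18 h (57.6% and 44.5% in either direction). The fall at Ebi3 in WT was not seen within 1000 bp of the start. Compared with 0 h, the mark at 18 h was higher at 2 of 3 members tested in WT (23.5% of all genes) and at 4 of 5 in KO (18.4%).

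**Figure D3:**
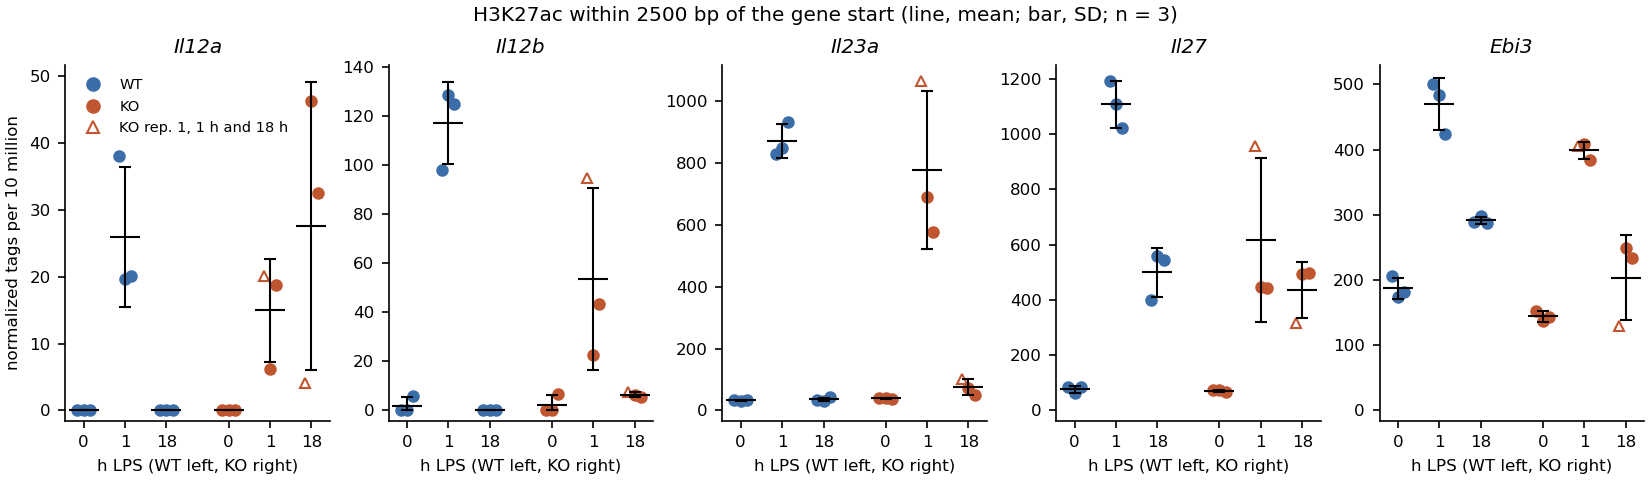
H3K27ac within 2500 bp of the start of the 5 genes in each of 18 libraries, in normalized tags per 10 M, by hours of LPS with WT on the left and KO on the right. Points are libraries, lines are means, bars are SD (n = 3), and open triangles are the libraries labelled KO replicate 1 at 1 h and 18 h. At Il12b and Il27 the triangle at 1 h (94.4 and 957) lies well above the other KO points (22.5 to 43.3 and 442 to 448).

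At the Il12b start H3K27ac was 0, 0 and 5.85 tags in WT at 0 h and 97.7, 128 and 125 at 1 h. In KO at 1 h it was 94.4, 22.5 and 43.3 tags, the first value being that of the library that stood apart. At 18 h it was 0 in WT and 7.41, 6.23 and 5.54 in KO, near the smallest region a library could hold. KO was lower than WT at 1 h by 1.16 on the log2 scale (SE 0.32, adjusted p = 0.0256), and by 1.60 without the KO replicate 1 libraries (adjusted p = 0.000114, limma). On the log2(tags + 1) scale with all libraries it was not called (adjusted p = 0.244). The interaction was -1.19 (adjusted p = 0.173), and -1.63 without these libraries (adjusted p = 0.00169).

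At the Il27 start H3K27ac was 84.9, 62.2 and 83.7 tags in the WT libraries at 0 h, then 1192, 1107 and 1023 after 1 h, then 398, 558 and 543 after 18 h. In KO it was 73.1, 73.1 and 66.6 tags at 0 h, then 957, 448 and 442 after 1 h, then 317, 493 and 497 after 18 h. All KO libraries lay below all WT libraries at 1 h, and the genotypes overlapped at 18 h. The H3K27ac region at 1 h was 30925 to 38455 bp long in WT and 17252 to 35464 bp in KO. At 18 h it was 7990 to 11946 bp long in WT and 16280 to 17751 bp in KO. These regions ran past the window with their tags spread evenly. The values at 1 h and 18 h are thus shares of a wide region and no separate measure of the Il27 start. KO was lower at 1 h by 0.93 (SE 0.24, adjusted p = 0.0187), and by 1.29 without the KO replicate 1 libraries (adjusted p = 1.29e-06). The interaction was -0.84 (adjusted p = 0.188) with all libraries and was called without them (adjusted p = 8.25e-05).

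At Il12a the mark was listed at 0 in all libraries at 0 h and was 38.0, 19.6 and 20.1 tags in WT and 20.1, 6.15 and 18.8 in KO at 1 h. At 18 h it was 0 in all WT libraries and 4.10, 46.4 and 32.5 in KO. KO was called higher at 18 h (adjusted p = 0.0205, and 2.02e-05 without the KO replicate 1 libraries), and its interaction was called only without them (adjusted p = 0.176 with and 0.000787 without). Here too the groups did not overlap at 18 h, as in Pol II. Within 1000 bp of the start the 18 h difference was not called (adjusted p = 0.138).

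At Il23a the mark was high at 1 h only. H3K27ac was 32.7, 31.5 and 33.0 tags in the WT libraries at 0 h, then 829, 848 and 932 after 1 h, then 34.6, 31.3 and 42.2 after 18 h. In KO it was 39.1, 41.8 and 37.1, then 1063, 691 and 576, then 101, 74.0 and 49.2 tags. From 1 h to 18 h the mark fell by 4.26 on the log2 scale in WT (adjusted p = 1.15e-09) and by 3.21 in KO (adjusted p = 1.31e-08), while Pol II in its window, taken from a region shared with Stat2, rose. KO was higher than WT at 18 h by 0.84 (adjusted p = 0.0368), and by 0.62 without the KO replicate 1 libraries (adjusted p = 0.00574).

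At Ebi3 H3K27ac was 174 to 206 tags in WT and 137 to 153 in KO at 0 h, 424 to 501 and 384 to 408 at 1 h, and 287 to 298 and 129 to 250 at 18 h. KO lay below WT at each time without overlap, but no difference passed the test with all libraries (adjusted p = 0.485, 0.331 and 0.0779). Without the KO replicate 1 libraries the differences were -0.35, -0.24 and -0.26 (adjusted p = 0.00736, 0.0185 and 0.0329, limma). No 0 h library was left out, so the 0 h difference rests on the same values. In that fit 10.3% of all genes were called at 0 h, against 0.771% with all libraries. At 1 h in WT the Ebi3 region was 5846 to 11099 bp long and ran past the window. Within 1000 bp of the start the means at 0 h, 1 h and 18 h were 149, 188 and 202 tags in WT and 122, 177 and 139 in KO.

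Between genotypes, H3K27ac differed at 0 of 3 members tested at 0 h, where 0.771% of all genes were called and Ebi3 was the 1 member with an unadjusted p under 0.05. It differed at 2 of 5 at 1 h, both lower in KO, where 7.42% of all genes were called lower and 11.1% higher (18.5% in either direction). One of these was Il27, whose value is a share of a region far wider than its window. At 18 h the mark differed at 2 of 5, both higher in KO, where 0.952% of all genes were called higher and 2.3% lower (3.25% in either direction). Interactions were called at 0 of 5 members at either time, against 0.568% and 0.63% of all genes, and unadjusted p under 0.05 were found at 2 members at 1 h (Il12b and Il27) and 1 at 18 h (Il12a). Without the KO replicate 1 libraries all 5 members were lower in KO at 1 h, by 0.24 to 1.60, where 24.2% of all genes were called lower and 35.6% higher in the same fit. At 18 h 2 of 5 were then higher and 1 lower, where 4.35% of all genes were called higher and 14.6% lower. With replicate 2 or replicate 3 left out of every group, no member was called between genotypes at 1 h or at 18 h, and with only the 2 groups compared in the fit none was called either.

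Around the members, 46 merged H3K27ac regions lay within 50 kb of a gene, 15 of them at Il12b, 10 at Il23a, 9 at Il27, 6 at Il12a and 6 at Ebi3. Of these, 38 overlapped a region of an input library. A region was called at an adjusted p under 0.05 with a log2 change over 1 in either direction, and 26 of the 32 regions tested were called in 1 or more of 11 comparisons, against 62.7% of the 51481 merged regions tested. At 1 h 6 of 31 regions tested were called between genotypes, all lower in KO and around Il12b, where 4.43% of all regions tested were called lower (14.1% in either direction). At 18 h 2 of 22 were called, both higher in KO and at Il12a, where 2.62% of all regions tested were called higher (3.74% in either direction). Without the KO replicate 1 libraries 9 of 30 were lower and 2 higher at 1 h, where 9.98% of all regions tested were lower and 19.2% higher in that fit. The 2 higher were Il12b +27.7 kb and Il23a +39.6 kb. At 18 h 3 of 22 were then higher, against 3.61%, and all 3 lay at Il12a. Regions are named by the distance of their centre from the gene start in the direction of transcription.

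At 1 h the Il12b locus carried its strongest mark upstream, whereas in WT at 0 h and 18 h the region at +15.3 kb described below held the most tags. A 17.3 kb region centred 24.4 kb before the start (chr11:44366967-44384306) held 1063, 1186 and 1097 H3K27ac tags in WT at 1 h and 1066, 412 and 448 in KO, against 54.0 to 87.2 at 0 h in both genotypes and 53.2 to 74.7 in WT at 18 h. In KO at 18 h it was 118, 119 and 87.6 tags, above all WT libraries, with a difference of 0.64 (adjusted p = 0.124) and of 0.58 without the KO replicate 1 libraries (adjusted p = 0.00957). The first KO value at 1 h, that of the library that stood apart, was at the WT level and the other 2 were not. The difference at 1 h was -0.92 (adjusted p = 0.0167), under the size threshold, and -1.36 without the KO replicate 1 libraries (adjusted p = 2.92e-06). Over the same stretch Pol II was 261, 215 and 269 tags in WT and 286, 325 and 297 in KO at 1 h, so that all KO libraries lay above all WT libraries, in the direction opposite to the gene itself. Pol II over H3K27ac regions was not tested.

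A 6.7 kb region centred 9.7 kb before the Il12b start (chr11:44387021-44393721), chosen after its values were seen, appeared with LPS. It was at 0 in all libraries at 0 h, and at 1 h it held 275, 242 and 218 H3K27ac tags in WT and 153, 50.3 and 71.2 in KO. KO was lower by 1.45 (SE 0.33, adjusted p = 0.00559, limma), and by 1.86 without the KO replicate 1 libraries (adjusted p = 2.58e-07). Pol II over it was 75.0, 55.2 and 67.0 tags in WT and 60.5, 64.8 and 62.3 in KO, which overlapped. At 18 h the mark was 19.3 to 27.6 in WT and 30.1 to 84.3 in KO. The middle 300 bases of the stretch that the regions of all 12 libraries at 1 h (both antibodies) share are shown because the region was at 0 before LPS and separated the genotypes. They held TTGCATAA and a GAGGAA core on each strand.
Il12b -9.7 kb, chr11:44390097-44390396, plus strand: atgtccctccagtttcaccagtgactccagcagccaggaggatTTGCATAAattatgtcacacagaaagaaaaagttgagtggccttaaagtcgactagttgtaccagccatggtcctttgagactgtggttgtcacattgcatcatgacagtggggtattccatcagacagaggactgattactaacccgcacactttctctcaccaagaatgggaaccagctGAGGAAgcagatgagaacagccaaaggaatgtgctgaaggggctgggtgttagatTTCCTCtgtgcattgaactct

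Of the other Il12b regions, the one over the start (centre -1.2 kb, 9.15 kb long) held 200, 224 and 209 H3K27ac tags in WT at 1 h and 162, 36.7 and 76.1 in KO, a difference of -1.32 (adjusted p = 0.0281, or 0.239 on the log2(tags + 1) scale) and of -1.80 without the KO replicate 1 libraries (adjusted p = 8.91e-05). The 2 other regions with high means lay downstream, and with all libraries no difference between KO and WT passed the test there. At +15.3 kb, just past the gene end, the mark was 211 to 236 tags in WT at 0 h, 137 to 156 at 1 h and 102 to 111 at 18 h, and the change from 0 h to 1 h of -0.54 was under the size threshold (adjusted p = 0.0393). KO libraries held 179 to 198 tags before LPS. After 1 h they held 115, 92.1 and 94.1 tags and after 18 h 34.8, 94.7 and 81.1, so that KO lay below all WT libraries at each time. KO and WT differed at 1 h by -0.53 (adjusted p = 0.0669). With the KO replicate 1 libraries left out, the differences at 0 h, 1 h and 18 h were -0.24, -0.63 and -0.27 (adjusted p = 0.0372, 1.2e-05 and 0.0206, limma), all under the size threshold. No 0 h library was left out, so the 0 h difference rests on the same values in both fits. Pol II over the +15.3 kb region at 1 h was 1189 to 1271 tags in WT and 550 to 696 in KO. The Pol II region behind the Il12b gene values ran past the gene window with its tags spread evenly. These tags cannot be taken as a measure separate from the gene. At +38.2 kb H3K27ac was 155 to 164 tags in WT and 138 to 176 in KO at 1 h, with a difference of 0.01 (95% interval -0.43 to 0.45, adjusted p = 0.982), and of 0.11 without the KO replicate 1 libraries (adjusted p = 0.478). The other 4 regions called lower in KO at 1 h were small ones farther out, at -44.9, -34.8, +52.5 and +62.2 kb, each with at most 55.6 tags in a library, and all 4 were also called without the KO replicate 1 libraries.

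**Figure D4:**
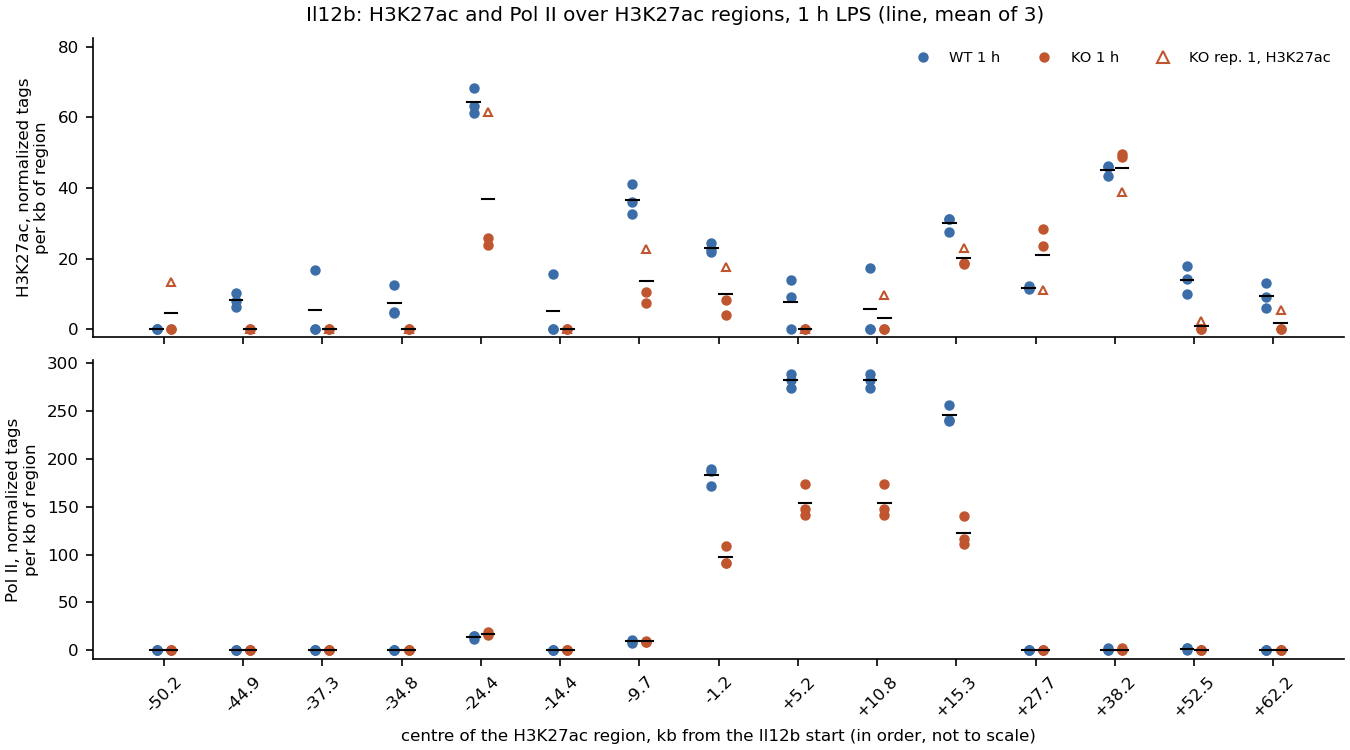
H3K27ac (top) and Pol II (bottom) over the 15 H3K27ac regions within 50 kb of Il12b at 1 h of LPS, in normalized tags per kb of region, with regions in order of the distance of their centre from the start in kb. Points are libraries, lines are means of 3, and the open triangle is the library labelled KO 1 h replicate 1. At -9.7 kb the H3K27ac points of the genotypes do not overlap and the Pol II points do.

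At Il12a the marked regions were few and weak. The region +19.0 kb from the first start (chr3:68708363-68710932), past the gene end, had no mark at 0 h and held 68.1, 63.5 and 48.4 H3K27ac tags in WT at 1 h and 63.6, 49.2 and 50.4 in KO. After 18 h it held 0, 7.23 and 8.99 tags in WT and 27, 38.3 and 36.1 in KO. The genotypes overlapped at 1 h and did not at 18 h, where KO was higher by 1.55 (SE 0.23, adjusted p = 0.000372) and the interaction was also called (adjusted p = 0.012, limma, with 0.839% of all regions tested called higher, or 0.12 on the log2(tags + 1) scale). The difference at 18 h was 1.67 without the KO replicate 1 libraries (adjusted p = 8.58e-05). No Pol II region was found over it in any library. The middle 300 bases of the stretch shared by the 6 H3K27ac libraries at 1 h are shown because the genotypes separated here at 18 h, and they held the AP-1 letters TGAGTCA, TTGCATAA and a GAGGAA core on the other strand.
Il12a +19.0 kb, chr3:68709391-68709690, plus strand: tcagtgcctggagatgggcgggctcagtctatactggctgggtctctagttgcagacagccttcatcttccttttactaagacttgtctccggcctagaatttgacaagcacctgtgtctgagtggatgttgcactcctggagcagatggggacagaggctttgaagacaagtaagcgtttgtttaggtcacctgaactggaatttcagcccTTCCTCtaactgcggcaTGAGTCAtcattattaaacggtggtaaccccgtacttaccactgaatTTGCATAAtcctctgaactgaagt

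Among the middle 300 bases of all 65178 merged regions, TGANTCA was present in 14%, TTGCNNAA in 13.5%, GAGGAA in 33.6%, GGGGAA in 23.3%, TATANAA in 16.1%, the interferon-stimulated response element in 6.49% and AAAGGTCA in 1.55%. The region over the second Il12a start (centre +2.2 kb, 3.67 kb long) held 46.6, 19.6 and 20.1 H3K27ac tags in WT at 1 h and 25.8, 6.15 and 24.8 in KO. At 18 h it held 0, 0 and 10.3 in WT and 26.4, 75.9 and 56.3 in KO, a difference of 2.22 (adjusted p = 0.00138) with an interaction of the same size (adjusted p = 0.0333, or 0.0584 on the log2(tags + 1) scale). The difference was 2.58 without the KO replicate 1 libraries (adjusted p = 0.000143). At -47.7 kb KO already held 8.14, 13.8 and 11.1 tags at 0 h and WT none (adjusted p = 0.0949, limma). The fit without the KO replicate 1 libraries left out no 0 h library and gave adjusted p = 0.000252 (limma) for the same values at -47.7 kb. The mark there at 18 h was 36.2, 31.0 and 36.4 tags in WT and 16.3, 72.4 and 56.9 in KO, with a difference of 0.24 (adjusted p = 0.691) and of 0.74 without the KO replicate 1 libraries (adjusted p = 0.00404). The third region of high mean, at -13.5 kb, held at most 16.4 tags in any library.

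**Figure D5:**
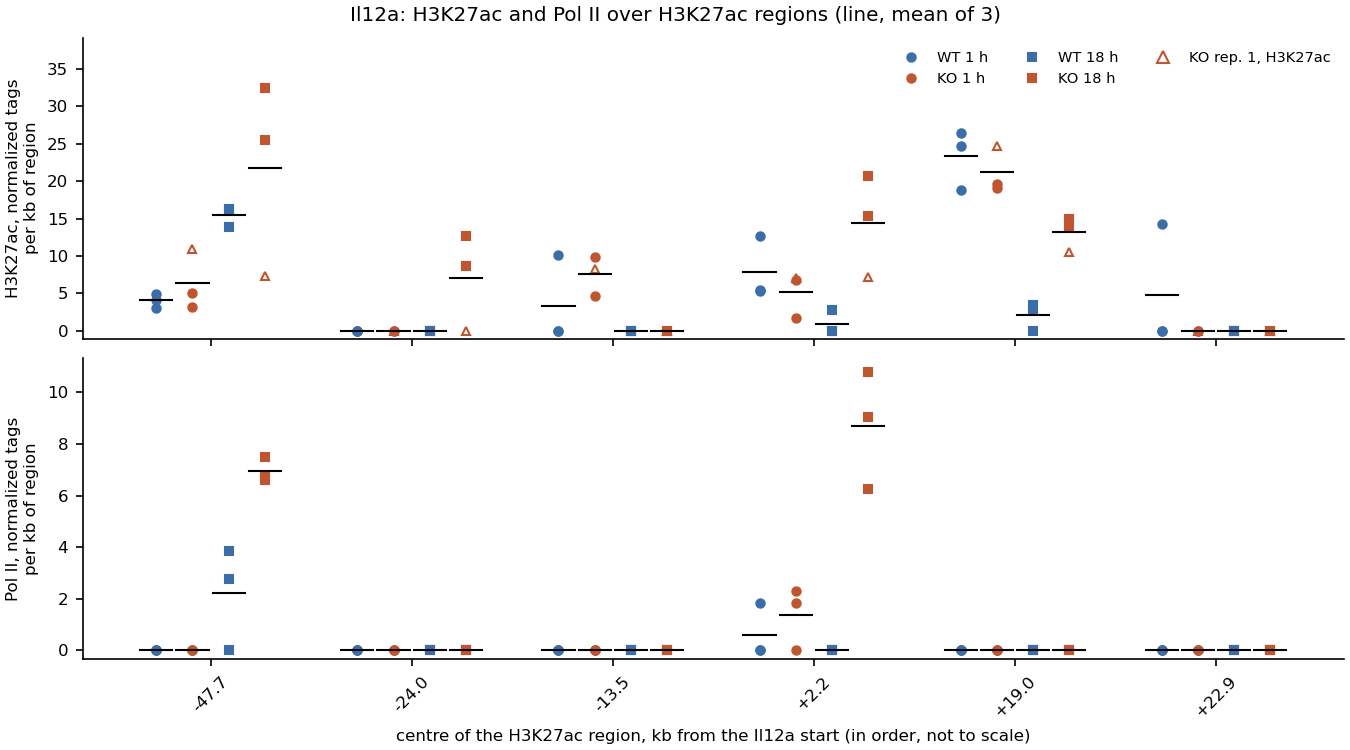
H3K27ac (top) and Pol II (bottom) over the 6 H3K27ac regions within 50 kb of Il12a at 1 h (circles) and 18 h (squares), in normalized tags per kb of region, with regions in order of the distance of their centre from the first start in kb. Points are libraries, lines are means of 3, and open triangles are KO replicate 1 libraries of H3K27ac. At +19.0 kb the 3 KO libraries at 18 h lie above the 3 WT libraries while Pol II is at 0 in all.

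Near the other members no region passed both thresholds between genotypes with all libraries. At 1 h Il23a -24.2 kb (-1.03), Il27 -8.1 kb (-1.04) and Il23a +39.6 kb (1.12) did without the KO replicate 1 libraries, and these were picked after their values were seen. At Ebi3 -21.5 kb H3K27ac was 86.3 to 105 tags in WT and 66.2 to 71.4 in KO at 1 h, and 85.0 to 113 in WT and 130 to 184 in KO at 18 h. The order of the genotypes thus turned between the times without overlap at either, with differences of -0.39 (adjusted p = 0.0483) and 0.54 (adjusted p = 0.0267), both under the size threshold, and an interaction at 18 h of 0.55 (adjusted p = 0.204). Without the KO replicate 1 libraries the differences were -0.40 and 0.41 (adjusted p = 0.00958 and 0.0172). Pol II over the same region was 65.1 to 69.9 tags in WT and 46.5 to 52.8 in KO at 1 h, and 45.7 to 60.6 and 70.1 to 76.3 at 18 h, in the same order as the mark. At Il23a +26.9 kb, over Stat2, H3K27ac in WT was 215 to 259 tags at 0 h, 732 to 773 at 1 h and 1041 to 1096 at 18 h, higher than 0 h at both times. At Il27 +29.1 kb the mark was 546 to 599 tags in WT and 510 to 572 in KO at 1 h, a difference of -0.07 (adjusted p = 0.578), and of -0.02 without the KO replicate 1 libraries (adjusted p = 0.773).

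The pathway around the cytokines was read from 21 genes for receptor subunits, kinases, STAT factors, regulators of the cytokine genes and the inhibitory cytokine IL-10. In Pol II, 13 of 18 tested rose and 5 fell after 1 h in WT, with a median change of 1.19 against -0.82 over all genes, of which 18.6% rose and 68.5% fell. In KO 12 rose and 4 fell, against 20.6% and 62.2% of all genes. Jak2, the kinase bound to IL-12 and IL-23 receptors, went from 138 to 183 tags at 0 h to 5915 to 6067 at 1 h in WT. The NF-kB genes Nfkb1 and Rel rose by 3.29 and 2.50, and Irf1, a factor known to act on the Il12a and Il27 promoters, rose by 3.13. The receptor genes Il6st, Il12rb2 and Il27ra fell by 1.01, 0.70 and 0.76, close to the shift of the median gene. Il12rb1, the receptor subunit for p40, held at most 5.09 Pol II tags in a library at 0 h and 1 h, and 282 to 368 in WT and 313 to 366 in KO at 18 h, and Il23r and Stat4 held too little for a test in Pol II.

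Between genotypes, Pol II at 0 h was lower in KO over 3 of 18 pathway genes and higher over none, with 6.97% of all genes called in either direction, and Il10 (-0.89) and Irf1 were among the 3. Pol II over 5 of 18 pathway genes was lower and over 2 higher in KO at 1 h, against 7.48% and 38.3% of all genes. At 18 h 5 of 19 were higher and 1 lower, against 7.58% and 13.5%. Irf8, a factor known to act on the Il12b promoter, had 1167 to 1282 Pol II tags in WT and 485 to 534 in KO at 1 h, a difference of -1.24 (adjusted p = 2.09e-10, limma), and it held 1913 to 1961 and 1853 to 2043 at 18 h. Irf1, Stat3 and Tyk2 were also lower at 1 h, by 0.54, 0.53 and 0.36, of which Irf1 was lower by 0.60 before LPS already (845 to 996 tags in WT and 607 to 638 in KO), and Il27ra and Il6st were the 2 higher. Nfkb1, Rel and Jak2 were not called at 1 h (0.02, -0.05 and -0.06), although all KO libraries lay below all WT libraries for Jak2, and they were higher in KO at 18 h by 0.74, 0.43 and 0.55, together with Nfil3 (0.77) and Stat3 (0.50). H3K27ac at the starts of these genes was lower in KO for 4 of 19 tested and higher for none at 1 h, against 7.42% and 11.1% of all genes. At 18 h H3K27ac was higher for Nfil3 (0.38) and lower for Nfkb1 (-0.84) of 20 tested, against 0.952% and 2.3%. Nfkb1 was already lower in KO at 0 h without overlap (445 to 495 tags in WT and 331 to 341 in KO), though not called. Without the KO replicate 1 libraries 7 of 19 were lower and 5 higher at 1 h (24.2% and 35.6% of all genes), and 6 of 20 were higher and 3 lower at 18 h (4.35% and 14.6%), with Nfil3 at 0.30 and Nfkb1 at -0.98. Irf8 was among those higher at 1 h (0.39, adjusted p = 9.27e-05, limma), opposite to its Pol II. With all libraries its mark was 239 to 279 tags in WT and 161 to 340 in KO.

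Genes whose Pol II followed each member most closely over the 18 libraries were ranked by Pearson correlation of log2(tags + 10), given as a description since all share the same libraries and depth. Il12b was most like Ccl22, Csf2 and Cxcl3 (r = 1.00 for each), 3 genes of chemokines and a growth factor that were at 0 at 0 h and 18 h and whose means at 1 h were 739, 302 and 230 tags in WT and 462, 237 and 176 in KO. In all, 601 genes of 12624 had r above 0.9 with Il12b, whereas for Il12a there were 2. Those were Lap3 and Nid1 (r = 0.91 and 0.90), followed by Gpr143 (0.90), and Nid1 and Gpr143 were at 0 in every group except KO 18 h, with means of 33.9 and 26.0 tags. Il23a was most like H2-K1, Oasl2 and Tm9sf4 (r = 0.99, 0.98 and 0.98), Il27 like Ift57, Rps6ka5 and Stom (0.99 each), and Ebi3 like Gramd1a, Slc35b2 and Hsp90ab1 (0.98 each). All 9 of these rose from 0 h to 1 h in the mean of both genotypes. At 1 h and 18 h the values of Il23a, Il27 and Ebi3 come from regions shared with other genes. Their likeness cannot be told apart from that of those neighbours.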

How the data were processed

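Pol II and H3K27ac ChIP-seq was read in 36 libraries, with 6 inputs as background. Reads were trimmed (Skewer), aligned to mm10 (HISAT2 2.1.0) and freed of duplicates by the authors, who searched each library alone for regions with HOMER, whose version is not given in the sources used here. Per the file headers, windows of 500 bp past a Poisson p of 0.001 were stitched under 1000 bp, with no input as control. The deposited signal of a region is its tags per 10 M, which sets all libraries to one total and not to one background.

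Regions were shared out by overlap over genes with 500 bp flanks (Pol II) or 2500 bp either side of the start (H3K27ac), and regions of all H3K27ac libraries were merged for the 50 kb around members. Of the protein-coding genes 21884 were used and 54 were left out for duplicate symbols. Comparisons used limma 3.58.1 in R 4.3.3 (moderated test with a trended prior, two-sided, Benjamini-Hochberg adjusted over all genes or regions tested) on log2(signal + 10), with 1 mean for each of 6 groups of an antibody. The fit was tested on simulated data. Groups came from the sample titles. Named were the 5 members, any of 21 pathway genes, neighbours within 50 kb, the 3 genes most correlated with each member, and per member the 3 regions of highest mean away from the start. The members, lists and tests were chosen with earlier results of these data known. Alternatives were the pseudocount, filters, window, median centring, a common density floor, regions without input overlap, each replicate left out, a replicate block and, chosen after seeing the data, a fit of only the groups compared. The catalogue number of the Pol II antibody differs between labels and methods. Figures were drawn with matplotlib 3.10.9 in Python 3.11.15. Some genes of the pathway and marker lists are counted in their totals but are not reported here by name.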

Additional observations from a re-analysis of the deposited data

Results flagged for a closer look

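The change with LPS differed between genotypes, by the interaction term of the limma fit, at 1 of 5 members tested in Pol II at each time, where 18.5% (1 h) and 14.8% (18 h) of all genes were called. It was -0.84 for Il12b at 1 h (adjusted p = 0.000592, and 0.112 on the log2(tags + 1) scale), with 4096 to 4314 tags in WT and 2106 to 2599 in KO. It was a fitted 2.103 for Il12a at 18 h (adjusted p = 0.00028, and 0.141 with a common density floor), where WT was listed at 0, so this is no fold change. The same term was called at 2 of 24 H3K27ac regions tested near members at 18 h, where 0.839% of all regions tested were called higher, 2.22 at Il12a +2.2 kb (adjusted p = 0.0333, and 0.0584 on the log2(tags + 1) scale, with the call also lost under a replicate block) and 1.55 at Il12a +19.0 kb (adjusted p = 0.012, and 0.12 on the log2(tags + 1) scale). At 1 h the term was called at 3 of 31 regions tested near members, all lower, against 1.36% of all regions called lower.

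Input libraries, which enter no comparison, also held regions over the members at 1 h, above 0 h. In the input of WT at 1 h the Pol II windows held 48.3 tags over Il12b, 38.2 over Il23a, 73.2 over Il27 and 23.4 over Ebi3, against 0 to 11.9 in both 0 h inputs. The H3K27ac windows of that library held 17.2 tags at Il12b, 59.4 at Il23a, 71.2 at Il27 and 14.2 at Ebi3. In the input of KO at 1 h the Pol II windows held 31.1, 19.2, 37.9 and 26.6 tags over Il12b, Il23a, Il27 and Ebi3, and 6.17 over Il12a, where the Pol II libraries of that group held 8.50, 0 and 6.68. At 18 h the WT input held 9.62 Pol II window tags over Il12b, 12.5 over Il23a, 18.1 over Il27 and 30.9 over Ebi3, and the KO input held 0 over each member. With 1 input library per group there is no replicate, and the part of this background in the results was not tested.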

How the results depend on the processing

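Single members and regions were followed for LPS against 0 h and for KO against WT at 1 h and 18 h, with some interactions. Of these values, 688 kept direction and call under an alternative, 59 lost the call, 23 gained it and 7 changed sign. The changes of sign were Il12a Pol II KO against WT at 1 h with median centring (-0.18) and without replicate 3 (-0.26, range over left-out replicates -0.26 to 0.44), Ebi3 Pol II in WT at 1 h and at 18 h against 0 h without input regions (-0.76 each), Ebi3 Pol II in KO at 18 h against 0 h in a start window of 500 bp (-0.46), Il23a H3K27ac KO against WT at 1 h without replicate 3 (range -0.49 to 0.032), and Il27 H3K27ac KO against WT at 18 h without KO replicate 1 (range -0.25 to 0.0032). The cause was not tested. Changes from 1 h to 18 h were not among these counts, and some of them also changed sign. Examples were Ebi3 H3K27ac in WT (-0.73 to 0.10 over the alternatives) and Il12a Pol II in KO (-0.315 to 3.01).

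Counts of members called moved by over 1.5 times as follows. Without regions that overlap an input region, which removes most of the regions over these genes, Pol II counts were 1 for WT at 1 h and at 18 h against 0 h and 0 for all other comparisons. H3K27ac counts were then 1 for 1 h against 0 h and for 18 h against 1 h in WT and in KO and 0 otherwise, and near regions called were 2 in any comparison, 2 at 1 h and 0 at 18 h between genotypes. With a region required in every library, Pol II counts were 3 for KO at 1 h against 0 h and at 18 h against 1 h, and 0 for KO against WT at 18 h and for both interactions. H3K27ac counts were then 3 for WT and KO at 1 h against 0 h and for WT at 18 h against 1 h, 1 for KO against WT at 18 h, and near regions were 2 at 1 h and 0 at 18 h. With a pseudocount of 1 the Pol II interaction at 1 h had 0, H3K27ac KO against WT at 1 h 1, its interaction at 18 h 1, and near regions at 18 h 4. Median centring gave 2 in the Pol II interaction at 1 h. A common density floor gave 0 in the Pol II interaction at 18 h and 3 in H3K27ac for KO at 1 h against 0 h. With no filter, and with only the groups compared in the fit (chosen after seeing the data), H3K27ac KO against WT had 0 at 1 h and 0 at 18 h, and the latter fit gave 1 at 0 h. A start window of 500 bp gave 0 in Pol II KO against WT at 18 h and its interaction, and one of 1000 bp gave 1 in H3K27ac KO against WT at 18 h. An adjusted p under 0.05 alone gave 12 near regions at 1 h and 5 at 18 h.

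Leaving out replicates 1 to 3 or the KO replicate 1 libraries in turn gave these lowest and highest counts. H3K27ac KO against WT had 0 to 1 at 0 h, 0 to 5 at 1 h and 0 to 3 at 18 h, its interactions 0 to 3 at 1 h and 0 to 1 at 18 h, KO at 18 h against 0 h 2 to 4, KO at 18 h against 1 h 3 to 4, and WT at 18 h against 0 h 1 to 2. Near regions numbered 22 to 27 in all, 1 to 11 at 1 h and 1 to 3 at 18 h. Pol II WT and KO at 18 h against 0 h had 2 to 3, WT and KO at 1 h against 0 h 4 to 5, KO against WT at 1 h 2 to 2 and at 18 h 1 to 1.

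The replicate numbers did not pair the libraries (same-number deviations had a median r of 0.0097 in Pol II and -0.0039 in H3K27ac over 45 pairs each). With a replicate block every count stayed within 1.5 times, at 2 for Pol II KO against WT at 1 h and at 3 for H3K27ac in KO at 18 h against 0 h. Single calls lost with it were Ebi3 H3K27ac in KO at 18 h against 0 h (0.42, adjusted p = 0.0583) and the Il12a +2.2 kb interaction at 18 h (adjusted p = 0.0535, limma). Regions are listed only above a minimum, so a 0 does not show that reads were absent.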
